A study of Mus musculus with 36 samples.

Results

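Transcripts of 10 genes of the epithelial tight junction were followed from untreated colon through treatment to colon tumors. The mice were without or with the interleukin-17 receptor subunit Il17rc. The genes are the claudins Cldn1, Cldn2, Cldn3, Cldn4, Cldn7, Cldn8, Cldn15 and Cldn23, occludin (Ocln) and the scaffold Tjp1, also called ZO-1. They were chosen by name, with earlier results of these data known. Each was read from its probe set with the highest mean log2 level over all 36 arrays, and all 10 were among the 17097 genes measured. Azoxymethane (AOM), a carcinogen that acts on the colon, was followed by 3 cycles of 5 days of 3% dextran sulfate sodium (DSS), which injures the colon epithelium, and 14 days of water. Total RNA of colon was hybridised to 1 Affymetrix HT MG-430 PM array per sample. The mice were 6 to 8 weeks old and were either IL-17RC knockout (KO) or wild type (WT).

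The 8 groups were KO untreated (n = 4), KO at day 7 (n = 4), KO at day 15 (n = 4), KO tumor at day 63 (n = 6), WT untreated (n = 4), WT at day 7 (n = 4), WT at day 15 (n = 4) and WT tumor at day 63 (n = 6). Untreated mice stand for day 0, and all day 7, day 15 and tumor groups of both genotypes received AOM and DSS. The sources used here state neither the strain, nor the sex, nor which part of Il17rc was deleted. The labels do not say that each sample was a separate animal, so the p-values cover the spread from sample to sample, which may be technical. Values are array intensities on a linear scale. A difference is on the log2(intensity + 1) scale after quantile normalisation, with its standard error (SE), and is called when limma's adjusted p over all 17097 genes is below 0.05.

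Tight junctions seal the space between neighbouring epithelial cells near their apical end. Claudins are membrane proteins with 4 spans that assemble into the strands of the junction, and the mix of claudins sets which ions and how much water pass between cells. Cldn2 and Cldn15 form pores for small cations, and Cldn2 also lets water pass. Cldn1, Cldn3, Cldn4, Cldn7 and Cldn8 are mostly counted as sealing claudins, Ocln is a further strand protein, and Tjp1 binds claudins and Ocln from inside the cell and links them to actin. In the colon, Cldn2 is largely a protein of the crypt base, and Cldn4, Cldn7, Cldn8 and Cldn23 are more often found toward the surface.

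The arrays did not all follow their labels or look alike. Il17rc read at most 15 on the KO arrays other than replicates 1 and 2 labelled KO day 7, which read 331 and 44, while WT arrays read 76 to 515. Krt5, a keratin of squamous epithelium that colon epithelium lacks, was above 100 on 7 arrays. These were KO day 7 replicates 1 and 2, KO tumor replicate 2, WT untreated replicates 1 and 4, and WT day 7 replicates 1 and 4. The squamous list had 12 of 13 genes measured, and its summed intensity reached 20295 on KO day 7 replicate 1 and 46471 on WT untreated replicate 1, against 129 on the lowest array. No listed marker was at 0 on any array, since the lowest value of the table was 4. All 8 epithelial genes (Epcam, Krt8, Krt18, Krt19, Vil1, Cdx1, Cdx2 and Elf3) were measured, and their sum ran from 21212 on KO day 15 replicate 4 to 32132 on a WT day 7 array, so colon epithelium was present throughout.

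**Figure D1:**
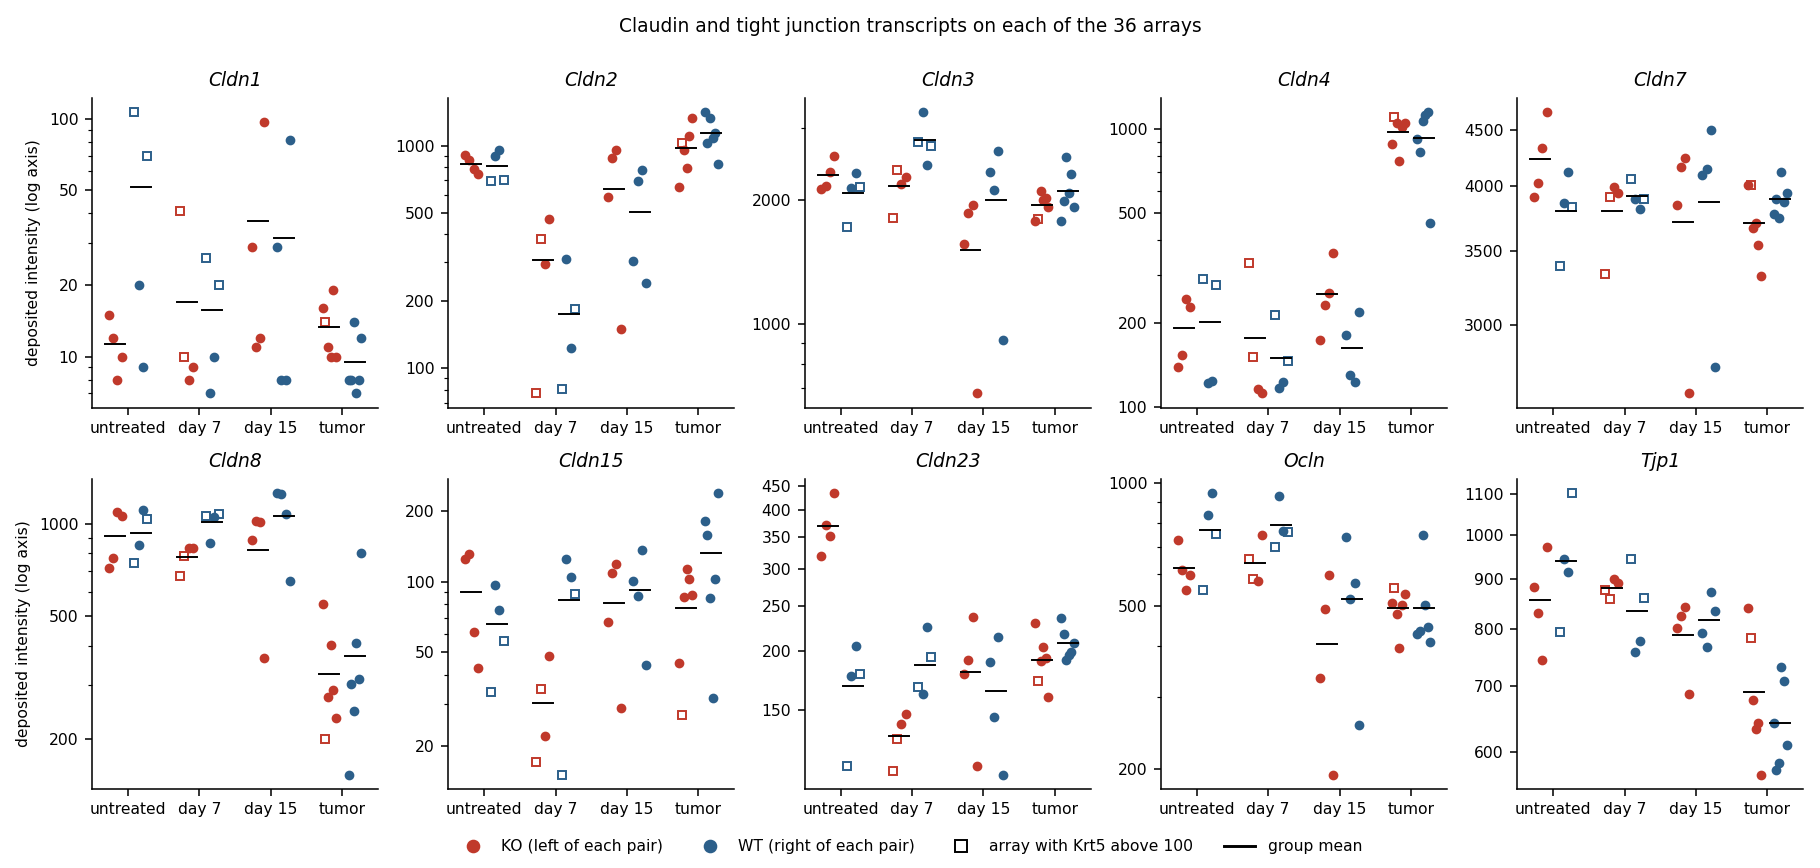
Intensity (logarithmic axis) of the 10 genes on each of the 36 arrays, 1 panel per gene, by stage, with KO in red left of WT in blue. Circles are arrays, squares are arrays with Krt5 above 100, and bars are group means. Cldn4 sits between 460 and 1156 in all tumors and at or below 359 elsewhere.

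In tumors the claudin profile shifted toward more Cldn4 and less Cldn8 in both genotypes, and the scaffold Tjp1 was lower. Cldn4 was 5.20-fold its untreated level in KO tumors and 4.84-fold in WT tumors, while Cldn8 was at 0.348 of it in KO tumors and 0.352 in WT tumors. Of the 10 genes, 4 were called in KO tumors against untreated KO colon (Cldn4 higher, with Cldn8, Cldn23 and Tjp1 lower), where 20.7% of all genes were called. In WT tumors against untreated WT colon 4 were called (Cldn4 higher, with Cldn1, Cldn8 and Tjp1 lower), where the background was 22.7%. The median difference of the 10 genes was -0.23 in KO and 0.05 in WT, beside medians over all genes of 0.01 in KO and 0.02 in WT.

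Cldn4, a sealing claudin of the colon surface and a receptor of Clostridium perfringens enterotoxin, read from 771 to 1108 in KO tumors, with a median of 1035.0. Untreated KO colon read 139, 154, 230 and 245. All KO tumors lay above all untreated KO samples, and the difference was 2.38 ± 0.29 (SE; limma adjusted p = 6.85e-07). In WT tumors Cldn4 read from 460 to 1156 with a median of 994.5, and untreated WT colon read 122, 124, 274 and 288. The WT groups did not overlap either, with a difference of 2.27 ± 0.29 (limma adjusted p = 1.31e-06). The mean level was 981.2 ± 126.4 in KO tumors and 192.0 ± 53.2 in untreated KO colon (SD, n = 6 and 4), and 927.3 ± 261.0 in WT tumors and 202.0 ± 91.4 in untreated WT colon (SD, n = 6 and 4).

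At the earlier stages Cldn4 was not called against untreated. KO samples averaged 177.2 ± 103.3 at day 7 and 256.2 ± 76.8 at day 15, and WT samples 150.2 ± 44.9 at day 7 and 163.8 ± 45.2 at day 15 (SD, n = 4 each). These means lay well below those of tumors. Tumors were higher than day 15 by 2.02 ± 0.29 in KO (4.07-fold, limma adjusted p = 1.78e-05) and by 2.46 ± 0.29 in WT (5.51-fold, limma adjusted p = 5.95e-07), without overlap of arrays. In the comparison of tumor with day 15, 2 of the 10 genes were called in KO (Cldn4 higher, Cldn8 lower), beside a background of 14.6%. In WT 4 were called (Cldn2 and Cldn4 higher, Cldn8 and Tjp1 lower), beside 20.0%.

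Cldn4 and Cldn3 are near neighbours on chromosome 5 and point away from each other, and only Cldn4 was called in tumors. Cldn4 lies at chr5:134945123-134946934 on the minus strand and Cldn3 at chr5:134986214-134987476 on the plus strand of GRCm38.p6, 39.3 kb apart. Their promoters are shown because the pair behaved differently in the tumors. Each runs from 250 bases before to 50 bases after the gene start, as given by RefSeq for that build, at chr5:134946885-134947184 (minus strand) for Cldn4 and chr5:134985964-134986263 (plus strand) for Cldn3. Capitals mark matches, on either strand, to the GC box GGGCGG of Sp1 and KLF factors, which 35.7% of 32851 promoters of that length hold, and to the E-box CAGGTG of Snail and Zeb factors, which 20.2% hold. These motifs overlap each other in neither sequence.
Cldn4: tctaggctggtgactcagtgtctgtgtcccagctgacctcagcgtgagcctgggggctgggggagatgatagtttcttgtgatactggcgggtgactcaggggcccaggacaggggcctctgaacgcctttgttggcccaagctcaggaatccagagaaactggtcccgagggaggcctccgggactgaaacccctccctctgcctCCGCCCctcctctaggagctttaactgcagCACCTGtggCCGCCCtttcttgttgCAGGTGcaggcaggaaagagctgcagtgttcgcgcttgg
Cldn3: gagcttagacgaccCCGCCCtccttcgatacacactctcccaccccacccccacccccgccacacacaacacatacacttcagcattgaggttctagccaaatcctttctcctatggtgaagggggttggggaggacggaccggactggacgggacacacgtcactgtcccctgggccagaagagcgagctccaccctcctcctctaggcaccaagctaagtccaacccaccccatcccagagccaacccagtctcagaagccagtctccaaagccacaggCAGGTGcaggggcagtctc
The GC box stood on the reverse strand at -44 and -5 in Cldn4 and at -236 in Cldn3. The E-box was found at -14 on the reverse strand and at 12 on the forward strand in Cldn4, and at 32 on the forward strand in Cldn3. GC content was 61.0% in the Cldn4 window and 60.7% in that of Cldn3. Also searched on both strands were the TATA box TATAAA (held by 13.6% of promoters), the STAT motif TTCNNNGAA (8.3%), the TCF motif CTTTGAT (3.73%) or its variant CTTTGAA (5.14%), the CDX motif TTTATG (11.9%) and the Grainyhead motif AACCGGTT (0.146%). They were matched in neither window, which says only that these letters are not there.

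Cldn8, a sealing claudin that limits the back-leak of sodium in distal colon, read from 200 to 549 in KO tumors, with a median of 281.5. Untreated KO colon read 719, 772, 1058 and 1089. Every KO tumor lay below every untreated KO sample, and Cldn8 fell by 1.52 ± 0.32 on the log2 scale (limma adjusted p = 6.31e-04). In WT tumors it read from 153 to 802 with a median of 306.5, against 743, 849, 1033 and 1106 in untreated WT colon. The difference of -1.51 ± 0.32 was called (limma adjusted p = 6.90e-04), and a single WT tumor, replicate 6, reached into the untreated range.

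**Figure D2:**
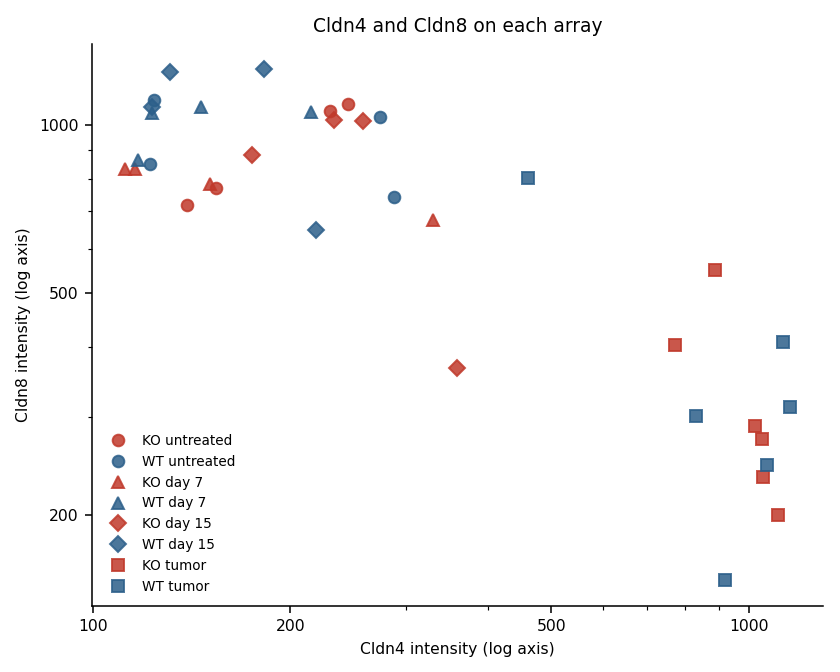
Cldn8 against Cldn4 intensity (both axes logarithmic) on the 36 arrays, with KO in red and WT in blue, and a marker shape for each stage. Tumors lie to the lower right, apart from WT tumor replicate 6, which has the lowest Cldn4 (460) and the highest Cldn8 (802) of the 12 tumors.

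WT tumor replicate 6 also carried the most smooth muscle RNA of the tumors. The smooth muscle sum was 16329 on it, against at most 6378 on the other WT tumors. Without this array the WT differences were 2.47 for Cldn4 and -1.77 for Cldn8, both called. Among KO tumors, replicate 1 had both the highest Cldn8 (549) and the highest smooth muscle sum (13645). Smooth muscle RNA was lower in tumors as a group, with 7 of 8 measured markers of 10 called lower in KO tumors and 8 of 8 in WT tumors. The sum ran from 1849 to 13645 in KO tumors and from 15591 to 16776 in untreated KO colon, and from 5665 to 16329 in WT tumors and from 18149 to 22915 in untreated WT colon. Epithelial sums ran from 25279 to 30553 in KO tumors and from 29963 to 31837 in untreated KO colon, and from 26731 to 29119 in WT tumors and from 22266 to 30112 in untreated WT colon. Of 11 measured immune markers of 12, 3 were called higher in KO tumors and 8 in WT tumors. The part of smooth muscle and immune content in the member values was not tested. In whole tissue, fewer cells of a type and less RNA per cell cannot be told apart. Taken relative to the epithelial list on each array, Cldn4 differed by 2.45 in KO tumors and 2.03 in WT tumors, and Cldn8 by -1.45 in KO and -1.75 in WT, all called. The list is not a fixed reference in tumors. Of its 8 genes, 2 were called higher and 3 lower in KO tumors, and 2 higher and 1 lower in WT tumors.

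Tjp1, the ZO-1 scaffold, fell by a smaller amount. It read from 568 to 842 in KO tumors with a median of 660.0, against 744, 832, 885 and 971 in untreated KO colon. These groups overlapped, and the difference of -0.29 ± 0.10 passed the test narrowly (limma adjusted p = 0.0301). WT tumors read from 575 to 732 with a median of 625.5, all below the 795, 916, 944 and 1103 of untreated WT colon (-0.54 ± 0.10, limma adjusted p = 0.000155). WT tumors were also below WT day 15 samples, by -0.34 ± 0.10 (limma adjusted p = 0.0122), a call lost relative to the epithelial list (-0.50, limma adjusted p = 0.0675) and with the number in the sample titles as a block (-0.29, limma adjusted p = 0.0808). The KO call did not hold with the replicate number as a block (-0.26, limma adjusted p = 0.0799) or relative to the epithelial list (-0.22, limma adjusted p = 0.583). It was also lost with the letter (-0.27, limma adjusted p = 0.0976) or the number (-0.29, limma adjusted p = 0.056) in the sample titles as a block. A fit of only these groups lost it too (-0.29, limma adjusted p = 0.0752). So did leaving out KO untreated replicate 1 or 4 or KO tumor replicate 4, 5 or 6 (limma adjusted p from 0.0566 to 0.131).

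No difference between KO and WT tumors was detected for the 10 genes. None was called with limma in KO against WT tumors, 0 had an unadjusted p under 0.05, and 0.0526% of all genes were called. The difference for Cldn4 was 0.12, with a 95% interval of -0.42 to 0.65, and for Cldn8 -0.08, with an interval of -0.65 to 0.50. For Tjp1 it was 0.10 (-0.08 to 0.28), for Cldn7 -0.08 (-0.28 to 0.13), for Cldn23 -0.13 (-0.46 to 0.21) and for Ocln 0.03 (-0.41 to 0.46). The intervals were widest for Cldn1 (-0.62 to 1.53) and Cldn15 (-1.75 to 0.35), so for these genes differences up to those limits are not excluded.

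**Figure D3:**
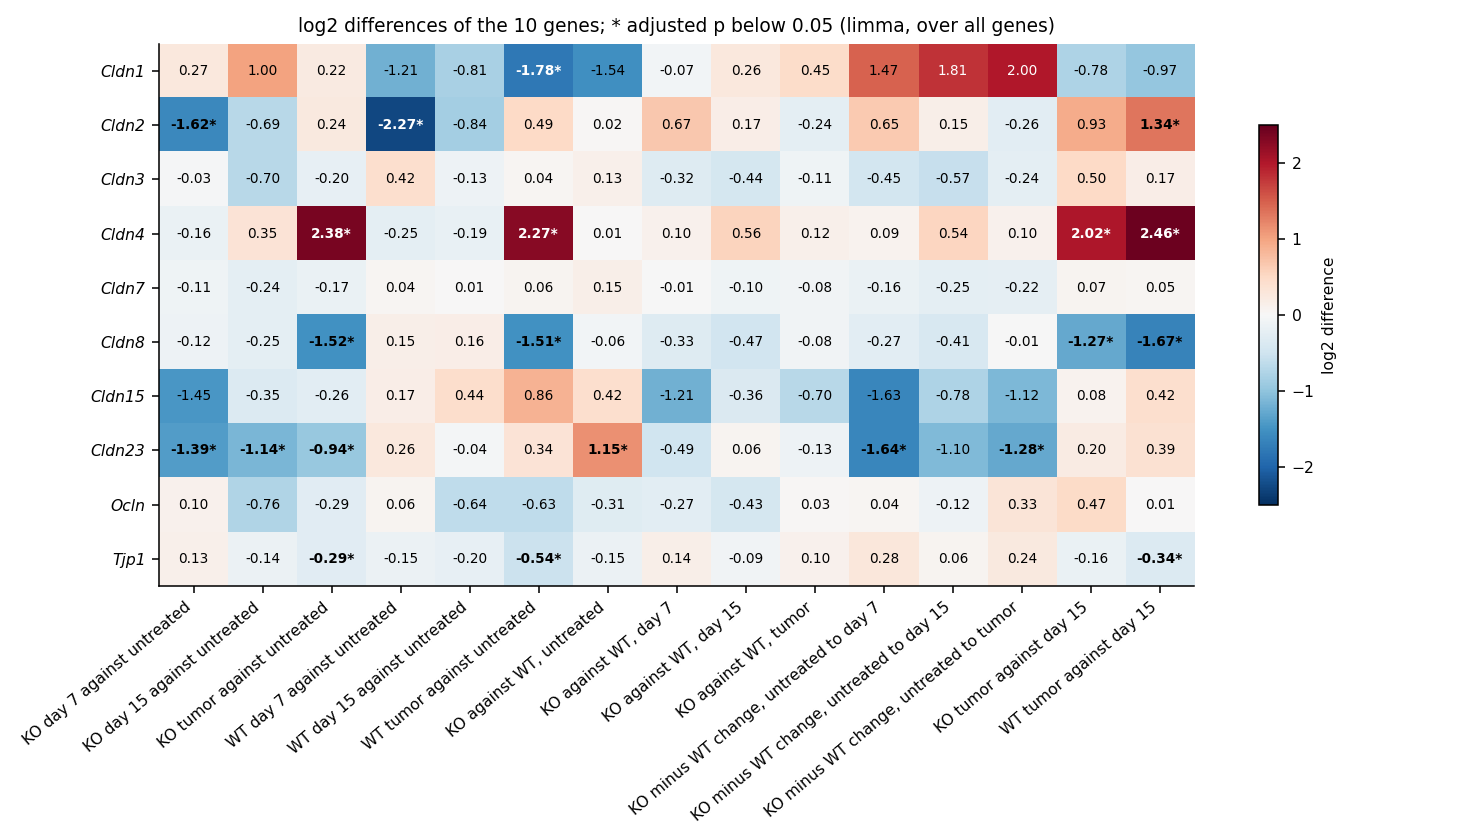
Log2 differences of the 10 genes (rows) in the 15 comparisons (columns), with red for positive and blue for negative differences and an asterisk on called ones. Cldn4 and Cldn8 stand out in the tumor columns, Cldn2 at day 7 and Cldn23 in the KO columns.

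At day 7 Cldn2, the pore-forming claudin of the crypt, was called lower in both genotypes. It was at 0.325 of its untreated level in KO and at 0.207 in WT. In KO at day 7, 2 of the 10 genes were called, both lower (Cldn2 and Cldn23), beside 12.2% of all genes. In WT at day 7, 1 was called, Cldn2, beside 1.66% of all genes. The median difference of the 10 genes was -0.12 in KO and 0.05 in WT, beside 0.01 in KO and 0.03 in WT over all genes.

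Cldn2 read 77, 295, 380 and 470 on the arrays labelled KO day 7, against 742, 784, 860 and 904 in untreated KO colon. No array of one group reached the range of the other, and Cldn2 fell by 1.62 ± 0.47 (limma adjusted p = 0.0197). WT samples at day 7 read 81, 123, 185 and 308, against 693, 697, 894 and 955 in untreated WT colon. These ranges were also apart, with a fall of 2.27 ± 0.47 (limma adjusted p = 0.00443). The KO minus WT difference of the change was 0.65 ± 0.66 and was not called (limma adjusted p = 0.701).

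Of the day 7 arrays, KO replicates 1 and 2 and WT replicates 1 and 4 carried squamous RNA, with sums from 145 to 20295 over the KO group and from 175 to 15796 over the WT group. Without arrays with Krt5 above 100, which leaves 2 arrays in each of KO day 7, WT day 7 and WT untreated, the Cldn2 difference was -1.10 in KO (limma adjusted p = 0.216) and -2.13 in WT (limma adjusted p = 0.159), neither called. The lowest KO value came from replicate 1, which also had high Il17rc. Without it the KO difference was -1.08 (limma adjusted p = 0.111), and without both arrays labelled KO day 7 with high Il17rc it was -1.10 (limma adjusted p = 0.206). With the letter in the sample titles, which the labels do not explain, as a block, the differences were -0.90 in KO (limma adjusted p = 0.41) and -1.54 in WT (limma adjusted p = 0.302). The remaining KO day 7 arrays, at 295 to 470, were still below all 4 untreated ones. Relative to the epithelial list the falls were 1.59 in KO and 2.61 in WT and were called.

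Cldn2 lies on the X chromosome at chrX:139800808-139811386 of GRCm38.p6, plus strand. The promoter at chrX:139800558-139800857, from RefSeq for GRCm38.p6 as above, is shown as that of the gene that fell in both genotypes. Capitals mark TATAAA, the TATA box, held by 13.6% of promoters, and TTTATG, a binding motif of the intestinal factor Cdx2, held by 11.9%, each searched on both strands without overlap.
Cldn2: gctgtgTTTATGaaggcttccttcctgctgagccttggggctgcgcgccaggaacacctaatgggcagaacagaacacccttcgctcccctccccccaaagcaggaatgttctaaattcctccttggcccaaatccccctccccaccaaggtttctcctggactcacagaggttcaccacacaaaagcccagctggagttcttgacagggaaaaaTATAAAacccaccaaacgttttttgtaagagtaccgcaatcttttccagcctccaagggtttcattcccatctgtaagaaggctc
The TATA box began at -35 from the gene start and TTTATG at -244. GC content was 51.3%. Neither the GC box nor the E-box searched above was matched in this window.

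At day 15 and in tumors Cldn2 was closer to its untreated level. At day 15 KO samples read 150, 585, 875 and 954, and WT samples 242, 303, 692 and 780. The spread at day 15 was wide in both genotypes, and neither differed from untreated by a called amount. Tumors read from 653 to 1329 in KO (median 989.0) and from 825 to 1419 in WT (median 1107.0). In WT, tumors were above day 15 without overlap (1.34 ± 0.43, limma adjusted p = 0.0246), a call lost without WT day 15 replicate 4 (1.03, limma adjusted p = 0.117) or replicate 1 (1.15, limma adjusted p = 0.104). The second Cldn2 probe set gave 1.04 for this comparison and was not called (limma adjusted p over all probe sets 0.0512). From low to high, the group means of Cldn2 ran WT day 7 (174.2), KO day 7 (305.5), WT day 15 (504.2), KO day 15 (641.0), WT untreated (809.8), KO untreated (822.5), KO tumor (977.2) and WT tumor (1135.7). The ranges of all neighbours in this order overlapped.

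Cldn15, the other cation-pore claudin, varied widely within groups. Arrays labelled KO day 7 read 17, 22, 35 and 48, against 43, 61, 125 and 131 in untreated KO colon. The difference of -1.45 ± 0.63 was not called (limma adjusted p = 0.139), but it was with array weights (-1.42, limma adjusted p = 0.0161) and in a fit of only these groups (-1.45, limma adjusted p = 0.0393). WT day 7 samples read 15, 89, 105 and 125, against 34, 56, 76 and 97 in untreated WT colon, ranges that overlapped. Tumors read from 27 to 113 in KO and from 32 to 239 in WT, and no comparison called Cldn15 as fitted. With array weights KO minus WT at day 7 was called (-1.39, limma adjusted p = 0.0142).

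Cldn23, a claudin of the colon surface whose role is less well defined, was the only member called between genotypes. It was 2.22-fold higher in untreated KO colon than in untreated WT colon. In KO it was called lower than in untreated KO colon at every stage after treatment, while no WT stage was called against untreated WT colon. Untreated KO colon read 320, 352, 372 and 435, and untreated WT colon 114, 177, 179 and 205. All untreated KO samples lay above all WT ones (1.15 ± 0.20, 95% interval 0.74 to 1.56, limma adjusted p = 0.000397). It was the only 1 of the 10 genes called in this comparison, in which 2.27% of all genes were called. The median difference of the 10 genes was 0.02, beside 0 over all genes.

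In KO colon Cldn23 read 111, 130, 140 and 147 at day 7, all below the untreated KO samples, a fall of 1.39 ± 0.20 (limma adjusted p = 1.5e-05). At day 15 it read 114, 179, 192 and 237, a fall of 1.14 ± 0.20 (limma adjusted p = 0.00281). It was the only member called at day 15 in KO, beside 0.807% of all genes, and it was not called in a fit of only these groups (limma adjusted p = 0.127). KO tumors read from 160 to 230 with a median of 192.0, a fall of 0.94 ± 0.18 (limma adjusted p = 3.56e-04). Without replicates 1 and 2 labelled KO day 7, whose Il17rc was high, the day 7 difference was -1.29 and the KO minus WT change -1.55, both called. None of the 14 treated KO samples reached the lowest untreated one. The 3 KO comparisons share the untreated KO samples and are not independent.

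WT colon read 162, 168, 194 and 225 at day 7, 109, 145, 190 and 215 at day 15, and from 192 to 236 in tumors, with a median of 203.5. These ranges overlapped that of untreated WT colon, and no WT stage was called (0.34 ± 0.18 in tumors, limma adjusted p = 0.188). The change from untreated differed between KO and WT by -1.64 ± 0.29 at day 7 (limma adjusted p = 0.000633) and by -1.28 ± 0.26 in tumors (limma adjusted p = 0.00609). It was the only 1 of the 10 genes called in each of these, where 2.36% and 0.784% of all genes were called. At day 15 the KO minus WT change of -1.10 ± 0.29 was not called (limma adjusted p = 0.147), 0 of the 10 genes were called, 1 had an unadjusted p under 0.05, and the background was 0.0819%. Without WT day 15 replicate 4 that difference was -1.33 and was called (limma adjusted p = 0.00932), and with the letter in the titles as a block the tumor difference was -1.16 and was not (limma adjusted p = 0.108). All 3 differences of change rest on the same untreated samples.

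The untreated WT group included arrays with squamous RNA, and its lowest Cldn23 value, 114, was on replicate 1, with the highest squamous sum. Without arrays with Krt5 above 100, untreated KO minus WT was 0.95 (limma adjusted p = 0.0578), and the KO minus WT change was -1.39 at day 7 (limma adjusted p = 0.0528) and -1.05 in tumors (limma adjusted p = 0.194). The remaining untreated WT samples, at 177 and 205, still lay below all 4 untreated KO samples. Immune markers were also unequal between the untreated groups, with 3 of 11 measured of 12 called higher in KO. Of the 8 epithelial genes 0 were called, but Vil1 read 2103 to 2366 in KO and 1043 to 1689 in WT. The keratin Krt20 read 4233 to 5192 in KO and 2455 to 3506 in WT. At day 7 Vil1 read 1324 to 1548 in KO and 1500 to 1893 in WT. Krt20 there read 1997 to 2661 in KO and 2765 to 3590 in WT. Smooth muscle sums were 15591 to 16776 in untreated KO and 18149 to 22915 in untreated WT. The part of all these in the Cldn23 difference was not tested. Relative to the epithelial list untreated KO minus WT was 0.96 and was called.

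Cldn1, the claudin of skin and other squamous barriers, was near background on most arrays and high on a few. It was above 25 on 8 arrays, of which 4 also had Krt5 above 100. WT tumors read from 7 to 14, against 9, 20, 70 and 107 in untreated WT colon. The test called WT tumors lower (-1.78 ± 0.59, limma adjusted p = 0.0275), with overlap of arrays, but all WT tumors were near background, so the size of the difference is not firmly measured. The second Cldn1 probe set, at 8 to 21 on all arrays, gave -0.26 ± 0.13, which was not called (limma adjusted p over all probe sets 0.178). The values of 107 and 70 were replicates 1 and 4, the arrays with squamous sums of 46471 and 14956, and without arrays with Krt5 above 100 the difference was -0.50 (limma adjusted p = 0.65). Without replicate 1 it was -1.23 (limma adjusted p = 0.158) and without replicate 4 -1.47 (limma adjusted p = 0.112). KO tumors read from 10 to 19, against 8, 10, 12 and 15 in untreated KO colon.

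The other Cldn1 values above 25 came at days 7 and 15. Those at day 7 were 41 on KO replicate 1 and 26 on WT replicate 1, both arrays with Krt5 above 100. At day 15 KO samples read 11, 12, 29 and 97, and WT samples 8, 8, 29 and 81, and replicate 4 was the highest in each genotype. These 2 arrays had the highest immune sums of the series, 24894 in KO and 17205 in WT, and the lowest epithelial sums, 21212 in KO and 21355 in WT. They were also the lowest of their groups for Cldn2, Cldn3, Cldn7, Cldn8, Cldn15, Cldn23 and Ocln, while Cldn4 was highest on both. The part of immune or epithelial content in these values was not tested.

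Cldn3 and Cldn7, sealing claudins of the colon, were called in none of the 15 comparisons. Cldn7 averaged 3709.5 ± 270.5 in KO tumors and 4234.2 ± 340.9 in untreated KO colon (SD, n = 6 and 4), and 3892.5 ± 133.0 in WT tumors and 3801.0 ± 303.8 in untreated WT colon (SD, n = 6 and 4). Cldn3 averaged 1943.5 ± 126.9 in KO tumors and 2302.2 ± 199.6 in untreated KO colon, and 2107.3 ± 280.6 in WT tumors and 2087.5 ± 259.7 in untreated WT colon (SD, n = 6 and 4). With array weights Cldn7 was called lower in KO tumors (-0.17, limma adjusted p = 0.0428). At day 15 in KO, Cldn3 read 679, 1567, 1864 and 1948, all below the 2132, 2167, 2342 and 2568 of untreated KO colon, without a call (-0.70 ± 0.24, limma adjusted p = 0.146). At day 7 in WT, Cldn3 read 2439, 2706, 2778 and 3284, all above the 1722, 2138, 2154 and 2336 of untreated WT colon, but the difference of 0.42 ± 0.24 was not called (limma adjusted p = 0.479).

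Ocln, the strand protein occludin, had its lowest group means at day 15 and in tumors, without a call. WT tumors read from 409 to 747, against 550, 750, 836 and 946 in untreated WT colon, and only tumor replicate 3 lay inside the untreated range. The difference of -0.63 ± 0.24 missed the threshold (limma adjusted p = 0.0547). It passed relative to the epithelial list (-0.87, limma adjusted p = 0.000809), with array weights (-0.77, limma adjusted p = 7.50e-04) and without tumor replicate 3 (-0.76, limma adjusted p = 0.0216). In KO tumors Ocln read from 395 to 554, against 549, 597, 613 and 728 in untreated KO colon (-0.29 ± 0.24, limma adjusted p = 0.459). At day 15 KO samples read 194, 334, 494 and 598 and WT samples 256, 520, 569 and 737, with differences from untreated of -0.76 ± 0.26 in KO (limma adjusted p = 0.143) and -0.64 ± 0.26 in WT (limma adjusted p = 0.177).

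Day 15 in WT and the genotype comparisons at days 7 and 15 gave no calls of the 10 genes. In WT at day 15 limma called 0 of the 10 genes, 1 had an unadjusted p under 0.05, and the background was 3.37%. In KO against WT at day 7, 0 were called and 1 had an unadjusted p under 0.05, beside 0.287%. There Cldn23 was lower on all arrays labelled KO day 7 than in WT, by -0.49 ± 0.20 (limma adjusted p = 0.310). The same separation of arrays held for Cldn3 (-0.32 ± 0.24, limma adjusted p = 0.707) and Cldn8 (-0.33 ± 0.35, limma adjusted p = 0.812). In KO against WT at day 15, 0 were called and 0 had an unadjusted p under 0.05, beside 0.222%.

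**Figure D4:**
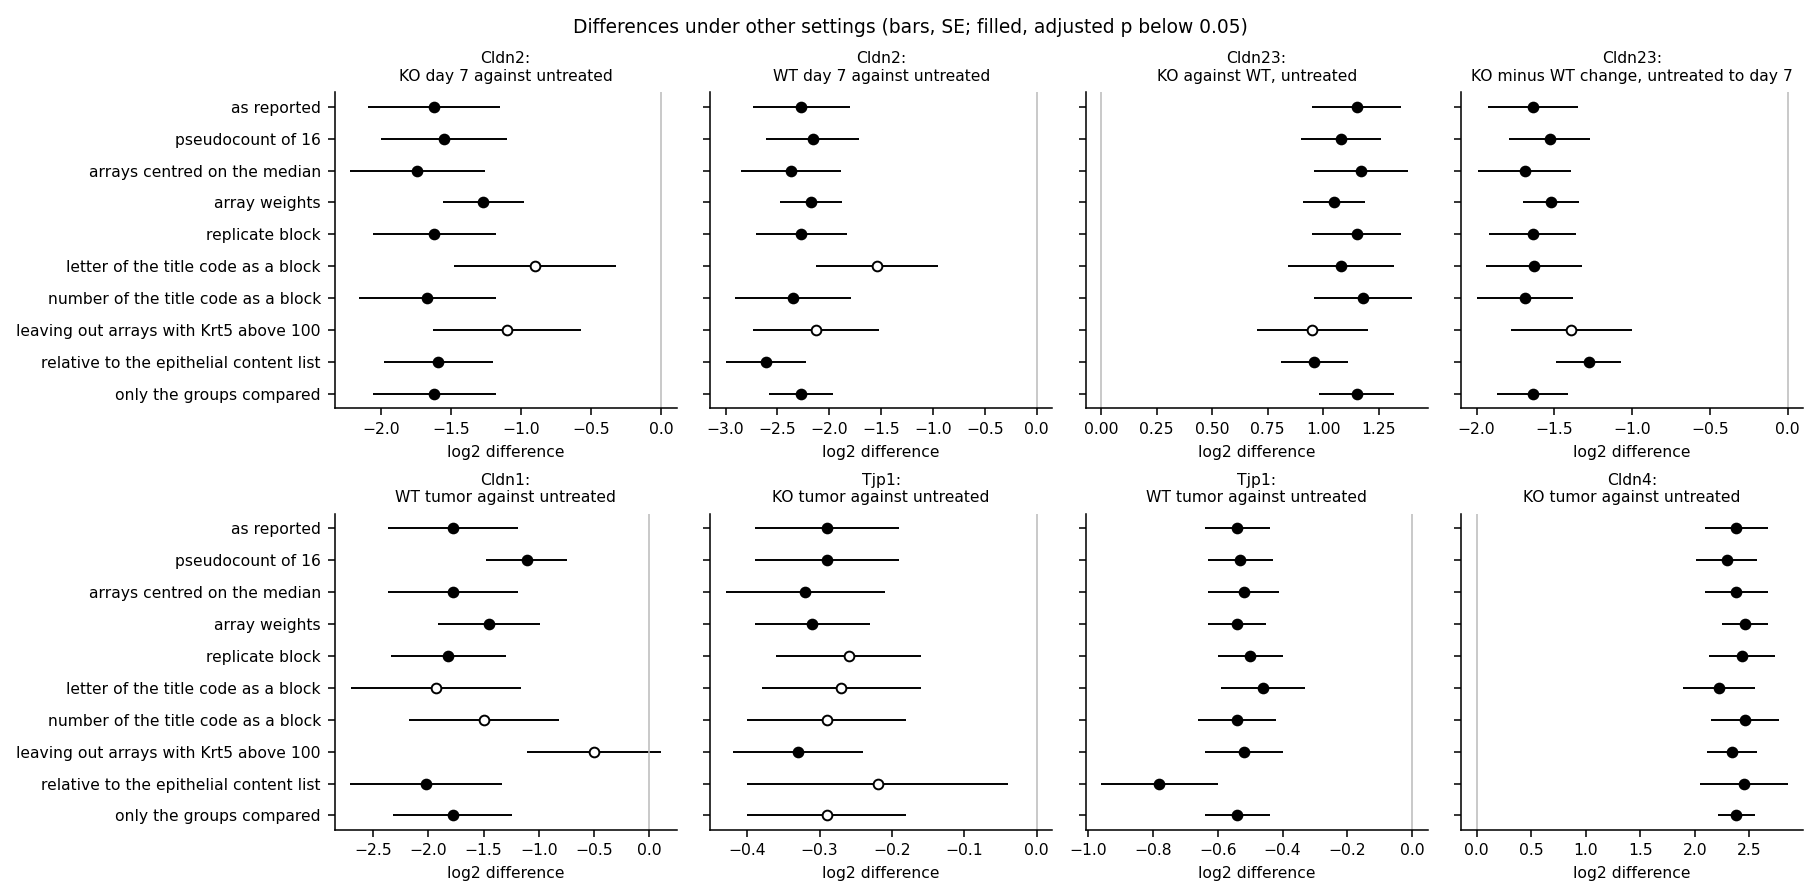
Log2 differences (x axis) of called members as reported and under other settings (rows), with 1 panel per gene and comparison. Filled points are called and bars are 1 SE, and the code blocks use a letter and a number in the sample titles that the labels do not explain. Cldn4 in KO tumors is called under all settings drawn, while Cldn1 in WT tumors, Cldn2 at day 7 and Tjp1 in KO tumors lose the call under several.

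Beyond the 10 genes, the lists held 63 more measured junction genes. Of other claudins 14 of 21 were measured, and limma called none in any of the 15 comparisons, while 11 of the 210 differences had an unadjusted p under 0.05. Group means of Cldn12 ran from 268.8 to 383.5, those of Cldnd1 from 198.5 to 255.5, those of Cldn5, the claudin of endothelium, from 53.2 to 90.0, and those of Cldn14 from 16.5 to 45.2. The other 10 averaged below 16 in every group, near background. In tumors 13 of the 63 were called in KO and 11 in WT, beside 20.7% in KO and 22.7% in WT over all genes. Of 14 measured membrane proteins of 15, 1 was higher and 3 lower in KO tumors, and 0 were higher and 2 lower in WT tumors. Of 22 measured scaffolds of 28, 3 were higher and 3 lower in KO tumors, and 2 were higher and 5 lower in WT tumors. Of 13 measured adherens junction and desmosome genes of 17, 1 was higher and 2 lower in KO tumors, and 1 was higher and 1 lower in WT tumors.

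Called in the tumors of both genotypes were Amot, Ctnnb1, Clmp, Bves, Magi1, Magi3 and Mylk. Amot (angiomotin, a scaffold that binds polarity and Hippo pathway proteins) was higher by 1.18 ± 0.27 in KO (limma adjusted p = 0.00200) and 1.48 ± 0.27 in WT (limma adjusted p = 0.000179). Ctnnb1, beta-catenin of adherens junctions and Wnt signalling, was higher by 0.32 ± 0.07 in KO (limma adjusted p = 0.000628) and 0.23 ± 0.07 in WT (limma adjusted p = 0.0104). The adhesion molecule Clmp was lower, by -0.71 ± 0.26 in KO (limma adjusted p = 0.0494) and -1.5 ± 0.26 in WT (limma adjusted p = 7.81e-05). The scaffold Magi3 was lower, by -0.80 ± 0.17 in KO (limma adjusted p = 0.00112) and -0.61 ± 0.17 in WT (limma adjusted p = 0.0106), and its relative Magi1 by -0.66 ± 0.22 in KO (limma adjusted p = 0.0303) and -0.98 ± 0.22 in WT (limma adjusted p = 0.00151). Bves, an adhesion protein, was dim, at a mean of 15.5 in KO tumors and 25.2 in untreated KO colon, and 15.8 in WT tumors and 37.8 in untreated WT colon. Mylk, the kinase that contracts the actin ring below the junction and also smooth muscle, was lower, by -1.47 ± 0.41 in KO (limma adjusted p = 0.00833) and -1.98 ± 0.41 in WT (limma adjusted p = 0.000551). Smooth muscle sums were lower in the same tumors, and their part in the Mylk and Clmp values was not tested.

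**Figure D5:**
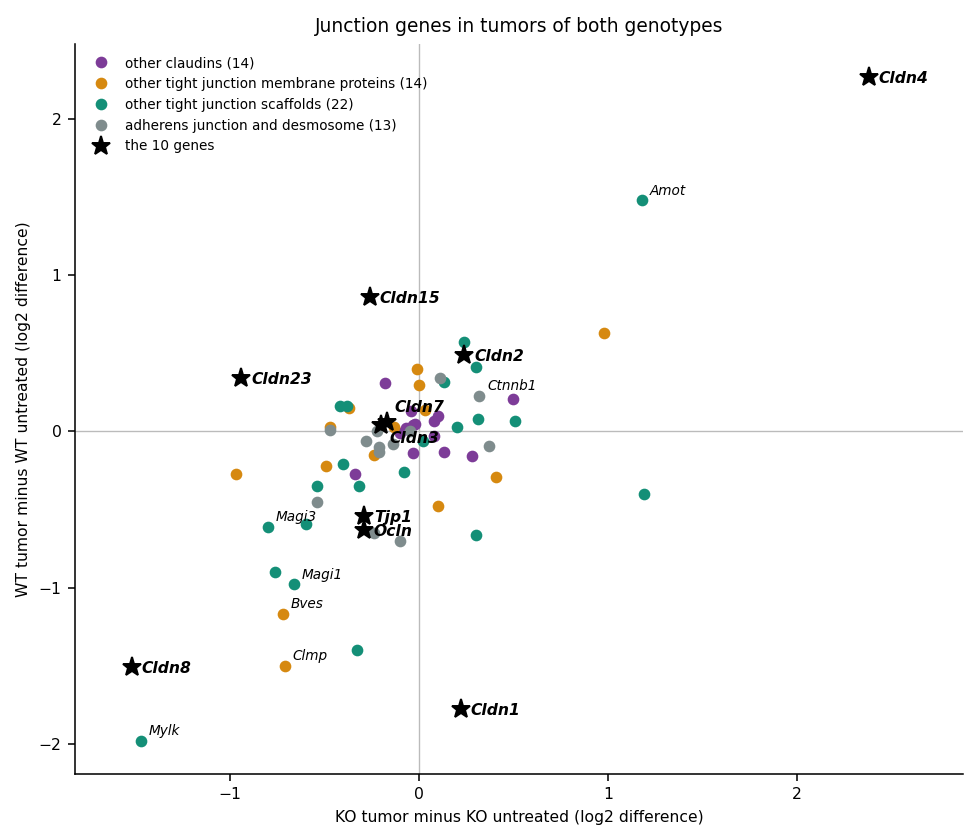
Log2 difference of tumors from untreated colon in KO (x axis) and in WT (y axis) for the 10 genes (stars) and the 63 other junction genes (circles, by list). Cldn4 lies at the upper right (2.38 in KO and 2.27 in WT), Cldn8 at the lower left, and circles are named where both genotypes were called.

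At day 7, 7 of the 63 other junction genes were called in KO and 0 in WT, beside 12.2% of all genes in KO and 1.66% in WT. In KO the scaffolds had 4 higher and 1 lower, among them Cgnl1 (0.76 ± 0.18, limma adjusted p = 0.00591), Afdn (0.62 ± 0.16, limma adjusted p = 0.00949) and Magi1 (0.82 ± 0.24, limma adjusted p = 0.0242), with the polarity protein Pard6b lower (-0.72 ± 0.22, limma adjusted p = 0.0257). Of membrane proteins, Bves was higher (0.69 ± 0.21, limma adjusted p = 0.0302) and Igsf5, a junctional adhesion molecule, lower (-0.98 ± 0.23, limma adjusted p = 0.00399). Igsf5 was also called for the KO minus WT change at day 7 (-1.30 ± 0.32, limma adjusted p = 0.0234). Of the 12 squamous genes measured 0 were called for KO at day 7 against untreated, with a median difference of 2.1, and 8 of 11 immune markers were lower. Smooth muscle sums ran from 17370 to 32745 on arrays labelled KO day 7 and from 15591 to 16776 in untreated KO colon. Of the 8 smooth muscle markers measured 1 was called higher, with a median difference of 0.85. The part of these contents in the junction gene values at day 7 was not tested.

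The genes most like each member over the 36 arrays, among 7067 genes with a mean of at least 64, differed between members. These correlations are descriptions over arrays that share the same 8 groups. For Cldn4 they were Sox4 (r = 0.946), Phlda1 (0.943) and Prmt1 (0.937). For Cldn8 they were Cds1 (0.943), Slc5a8 (0.94) and Abat (0.936). For Cldn2 they were Cdo1 (0.891), Gpx2 (0.842) and Stmn1 (0.838), and for Cldn23 Plaat3 (0.851), Rnaset2a (0.825) and Lrrc66 (0.817). Bcl2l14 came first for Cldn3 (0.897), before Spint2 (0.874) and Ilvbl (0.872), and for Ocln (0.901), before Exph5 (0.895) and Hes1 (0.893). For Cldn7 they were Krtcap3 (0.907), Stx3 (0.865) and Hook1 (0.858), for Tjp1 Slc6a8 (0.868), Ano1 (0.865) and Rhbdl2 (0.86), for Cldn15 Pdia5 (0.891), Tspan13 (0.866) and Chid1 (0.835), and for Cldn1 Ecm1 (0.847), Rab7b (0.821) and Rdx (0.771).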

How the data were processed

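Colon RNA was measured on 36 arrays in 8 groups by genotype and stage. The authors deposited 1 linear intensity for each probe set, as whole numbers from 4 to 14185, per the file headers and values. How the background was corrected and probes were summarised is not given in the sources used here. Array medians of 14 to 16 were close as deposited. Extraction with TRIzol and biotin labelling are per the labels' protocols. Arrays have no read depth, and the number of arrays and dim signals limit the precision.

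From the deposited intensity, log2(intensity + 1) was computed and quantile normalised. Of 45037 probe sets, 28898 had 1 symbol in the platform annotation, 551 several and 15588 none. The first kind was kept, with the probe set of highest mean for each of 17097 genes. A model with 1 mean for each of 8 groups was fitted with limma 3.58.1 in R 4.3.3 (moderated variances with an intensity trend), and p-values were adjusted by Benjamini-Hochberg over all genes within each of 15 comparisons at 0.05. The fit was tested on simulated data. Only 3 members (Cldn1, Cldn2 and Cldn3) had a second probe set.

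All 10 members were named, with the 3 genes most like each member and some called genes of the junction lists, by smallest p, in the tumor and day 7 comparisons. Some genes called in the tumors of a single genotype are counted but not named. Among these are the adherens junction and desmosome genes called lower. Magi1, Bves, Clmp and Ctnnb1 are also named because they were called in both tumor comparisons. The members, the lists and some alternatives were chosen with earlier results of these data known. The alternatives were other normalisations, pseudocount, filter, probe set rule, blocks and weights, and arrays left out. No pairing of replicates is stated in the labels. Deviations of same-numbered samples correlated above 0.1 in every pair only for WT day 7 with untreated (0.165 to 0.397) and for KO with WT at day 15 (0.173 to 0.8), where the replicate block left the counts of called members at 1 and 0.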

Additional observations from a re-analysis of the deposited data

Results flagged for a closer look

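Single arrays stood apart from the others of their group in 4 of the 80 groups of values, by Dixon's test at 95%, and chance flags about 1 group in 20. Cldn1 read 41 on KO day 7 replicate 1, an array with squamous RNA and high Il17rc. The same array was lowest for Cldn7, at 3337. Cldn8 read 864 on WT day 7 replicate 2, below the other arrays of that group, which read 1049 to 1077. Ocln read 747 on WT tumor replicate 3, above the other WT tumors.

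The change of Cldn23 from untreated differed between KO and WT by -1.64 at day 7 and by -1.28 in tumors, each called by the test of the difference itself. The untreated KO samples that both values rest on read 320 to 435.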

How the results depend on the processing

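Across 16 alternative settings and the 36 arrays left out in turn, 4000 member differences were recomputed. Of these, 31 lost a call, 22 gained one and 0 called differences reversed. Cldn4 and Cldn8 in tumors kept their calls in all of them, and so did Cldn23 in KO at day 7 and in KO tumors and Tjp1 in WT tumors against untreated. Where counts of called members moved, the cause was not tested beyond the fewer arrays or genes in a fit. For KO at day 7 (2 called) there was 1 with the letter in the titles as a block, 1 without arrays with Krt5 above 100 and 1 without the KO day 7 arrays with high Il17rc, but 3 (with Cldn15) with array weights and 3 with only the groups compared. For KO at day 15 (1 called) there were 0 with only the groups compared. For WT at day 7 (1 called) there were 0 with the letter block, 0 without arrays with Krt5 above 100, and 2 (Cldn2 and Cldn3) without replicate 4 of both genotypes at day 15, a setting chosen after seeing the data. For KO against WT untreated (1 called) there were 0 without arrays with Krt5 above 100, and for KO against WT at day 7 (0 called) there were 3 with array weights (Cldn2, Cldn15 and Cldn23). For the KO minus WT change at day 7 (1 called) there were 0 without arrays with Krt5 above 100, at day 15 (0 called) 1 with array weights and 1 without replicate 4 at day 15, and in tumors (1 called) 0 with the letter block and 0 without arrays with Krt5 above 100. Leaving out single arrays gave 1 to 2 at day 7 in KO, 1 to 2 at day 15 in KO, 0 to 1 for the change at day 15, 3 to 4 in KO tumors and 3 to 5 in WT tumors against untreated. The replicate block took the call from Tjp1 in KO tumors (-0.26) and changed no other call of a member. Leaving out the KO tumor array with Y-linked transcripts, also chosen after seeing the data, did the same (-0.27, limma adjusted p = 0.0608). Leaving out KO tumor replicate 4 gave the same values for Tjp1, so this setting is not separate from that fit. Both are counted among the 31 lost calls.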

Other observations

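The second probe set of Cldn2 gave differences at day 7 of -1.83 ± 0.40 in KO and -1.92 ± 0.40 in WT (SE; limma adjusted p over all probe sets 0.00259 in KO and 0.00738 in WT). Ildr1, a protein of tricellular contacts, fell by 0.97 ± 0.25 in KO tumors (limma adjusted p = 0.00463).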
